A study of Mus musculus with 2 samples.

Results

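Every site at which the transcription factor Myb was called bound around its own gene was collected from a ChIP-Seq peak list of WT mouse bone marrow cells. The interval ran from 50 kb outside *Hbs1l* to 50 kb outside *Ahi1*, the protein-coding neighbors on either side of *Myb*, at chr10:20902547-21418898 of mm10. A peak was taken when its summit lay in this interval, which gave 43 of the 25793 peaks in the list and 43 of the 1458 on chromosome 10. The 43 peaks lay in *Myb* and *Ahi1*, on either side of *Ahi1* and between *Myb* and *Hbs1l*, and *Hbs1l* itself held none.

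Myb ChIP-Seq was used in the study to define Myb target genes in normal progenitors. Chromatin came from the bone marrow of WT mice, from cells depleted of mature lineages (Lin-) and labeled as more than 80% pure. There were 2 groups with 1 library each, an anti-Myb precipitate and a nonspecific IgG precipitate, both from WT Lin- cells. The labels name no treatment. In the study's mouse models WT stood for Cre-free *Ep300* fl/fl mice given poly(I:C), and whether the mice used for Myb ChIP-Seq were of that kind is not given in the sources used here. The IgG library served as the background of the peak calls, so no difference between groups could be tested and no value has a replicate. A peak list holds no expression values, so the labeled cell type was not checked against marker genes.

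*Myb* encodes a DNA-binding transcription factor that hematopoietic progenitors need in order to proliferate, and its level falls as blood cells mature. *Hbs1l* encodes a GTPase related to translation release factors that takes part in rescue of stalled ribosomes. *Ahi1* (Abelson helper integration site 1) carries its name from retroviral insertions in mouse leukemia and encodes a protein of the ciliary transition zone. The DNA between *Hbs1l* and *Myb* is known from erythroid cells to hold distal enhancers of *Myb* that are bound by GATA1, TAL1, LDB1 and KLF1, and transcription through *Myb* intron 1 is known to be attenuated. Because *Myb* lies on the minus strand and *Hbs1l* and *Ahi1* on the plus strand, the 5′ ends of *Myb* and *Hbs1l* face each other. Distances are given from the *Myb* 5′ end (position 21160984), positive into the gene and on toward *Ahi1*, negative toward *Hbs1l*.

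The sequences at the summits on which the results turn are shown first, each as 101 bases of the mm10 plus strand with the summit in the center. In the first 3, capitals mark the Myb motif. It was searched as CAACGG or CAACTG or TAACGG or TAACTG on either strand, so that a capital stretch may show the reverse complement. The 3 windows with the motif are the strongest and the next strongest peak of the *Myb* gene that hold it, and the only such peak between *Myb* and *Hbs1l*.
Peak +14.4 kb, *Myb* intron 8, chr10:21146537-21146637: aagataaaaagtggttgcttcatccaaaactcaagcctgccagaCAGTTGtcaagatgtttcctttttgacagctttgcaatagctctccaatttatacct
Peak +2.9 kb, *Myb* intron 1, chr10:21158062-21158162: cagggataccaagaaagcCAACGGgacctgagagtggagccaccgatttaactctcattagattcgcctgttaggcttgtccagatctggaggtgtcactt
Peak −91.3 kb, beside the start of the noncoding gene Gm33728, chr10:21252229-21252329: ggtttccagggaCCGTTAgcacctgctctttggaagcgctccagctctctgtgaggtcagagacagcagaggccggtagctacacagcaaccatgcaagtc

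In 6 further windows, none of which holds that motif, capitals mark matches to the motifs of 6 other families of blood transcription factors. The GATA motif was searched as AGATAA or TGATAA, and the ETS motif as AGGAAG or CGGAAG. The RUNX motif was TGCGGT or TGTGGT, and the E-box, read by basic helix-loop-helix factors such as TAL1, was CAGNTG with N for any base. The motif of the CEBP factors was TTGCNNAA, and that of the KLF factors was CCNCNCCC. All were searched on either strand. The 6 windows show the strongest peak of the interval, the peaks nearest to the *Myb* and *Hbs1l* 5′ ends, and 3 strong peaks outside the genes that were chosen after their values were seen. The E-box form CAGTTG is the reverse complement of the Myb form CAACTG, so those letters count for both.
Peak +106.1 kb, *Ahi1* intron 19, chr10:21054839-21054939: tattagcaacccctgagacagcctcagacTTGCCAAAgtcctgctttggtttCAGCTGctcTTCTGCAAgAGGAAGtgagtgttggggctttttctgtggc
Peak +77.1 kb, between *Myb* and *Ahi1*, chr10:21083785-21083885: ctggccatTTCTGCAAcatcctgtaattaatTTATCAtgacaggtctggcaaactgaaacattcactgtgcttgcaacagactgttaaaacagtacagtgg
Peak +0.376 kb, nearest to the *Myb* 5′ end, chr10:21160558-21160658: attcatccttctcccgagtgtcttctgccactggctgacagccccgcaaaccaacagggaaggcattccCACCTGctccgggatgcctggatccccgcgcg
Peak −35.7 kb, strongest between *Myb* and *Hbs1l*, chr10:21196670-21196770: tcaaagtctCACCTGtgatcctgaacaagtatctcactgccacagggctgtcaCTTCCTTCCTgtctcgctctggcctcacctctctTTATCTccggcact
Peak −67.7 kb, with the most reads between *Myb* and *Hbs1l*, chr10:21228632-21228732: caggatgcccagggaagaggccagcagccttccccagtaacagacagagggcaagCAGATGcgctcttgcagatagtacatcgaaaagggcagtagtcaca
Peak −109.6 kb, nearest to the *Hbs1l* 5′ end, chr10:21270487-21270587: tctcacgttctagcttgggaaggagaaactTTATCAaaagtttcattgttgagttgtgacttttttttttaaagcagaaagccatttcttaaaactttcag

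Peaks were dense across the interval up to the −109.6 kb peak, and none was listed in the last 25.4 kb before *Hbs1l*, in *Hbs1l* or in the 50 kb beyond it. The 43 summits over 516.352 kb came to 8.33 per 100 kb, against 1.06 per 100 kb over the sequenced autosomes and 1.15 on chromosome 10. This was 7.85 times the autosomal mean (exact Poisson 95% interval 5.68 to 10.6). The interval covers counting error only, and neighboring peaks are not independent. Among 4600 autosomal windows of the same length, the median held 2 summits and the quartiles were 0 and 9, and 15 windows (0.326%) held 43 or more. The richest window held 68 and 1710 windows held 0.

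**Figure D1:**
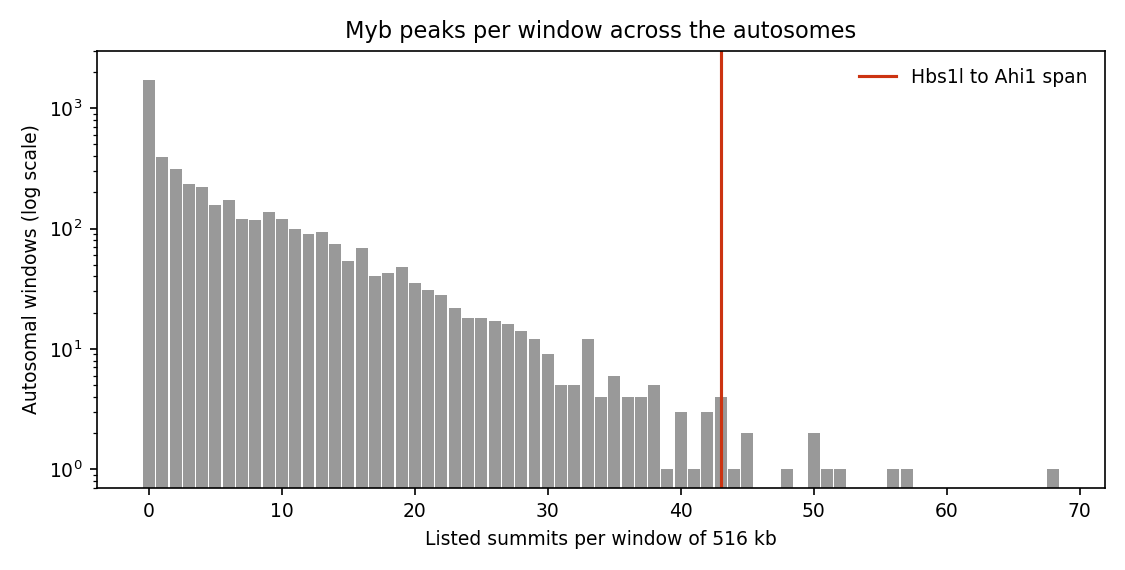
Number of autosomal windows of 516 kb (y axis, log scale) by the number of listed Myb summits they hold (x axis, gray bars), with the interval from *Hbs1l* to *Ahi1* as a red line. The line at 43 summits stands far to the right of the median window, which held 2, and 15 of 4600 windows reach it or pass it.

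The density was uneven within the interval. *Myb* held 13 summits in 36.05 kb (36.1 per 100 kb, 34.0 times the autosomal mean), and its peaks covered 27.3% of the gene. Of these 13, 2 reached 5 on the −log10 q-value, against 43.1% of all listed peaks. The stretch between the *Myb* and *Hbs1l* 5′ ends held 12 in 134.994 kb (8.89 per 100 kb), and *Ahi1* held 11 in 127.883 kb (8.60 per 100 kb). There were 2 between *Myb* and *Ahi1* in 44.505 kb (4.49 per 100 kb) and 5 in the 50 kb before *Ahi1* (10 per 100 kb). No summit was listed in the 72.92 kb of *Hbs1l* or in the 50 kb beyond it, a stretch that includes *Aldh8a1*, an aldehyde dehydrogenase gene.

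**Figure D2:**
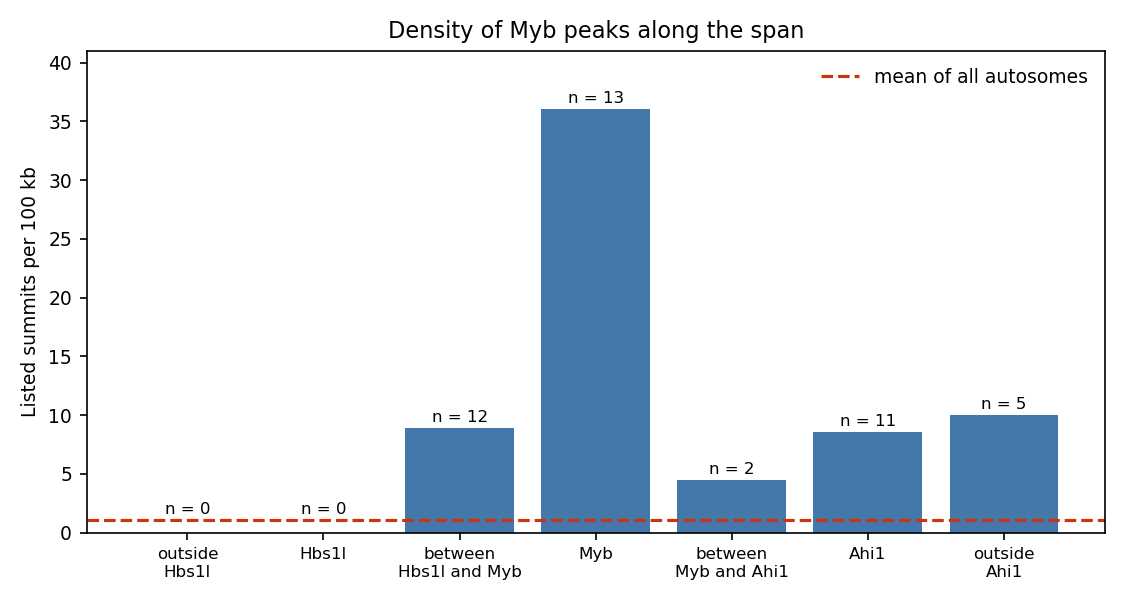
Listed Myb summits per 100 kb (y axis, bars) in 7 consecutive stretches (x axis, from the *Hbs1l* side to the *Ahi1* side), with the number of summits above each bar and the mean of all autosomes as a dashed line. The bar of *Myb* reaches 36.1 per 100 kb, 4 other stretches lie between 4.49 and 10, and *Hbs1l* and the 50 kb outside it are at 0.

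The strength of a peak was read from 2 values. Fold enrichment (FE), as computed by the authors, is the ratio of Myb pileup to the IgG background used at the summit. The same constant is added to both before division. The lowest background, 1.46, is shared across the list, so at that value it is not a local reading. The pileup is the read number times a scale of 0.769, so FE is not reads divided by background. The number of Myb reads behind each summit was recovered from FE and the p-value. Intervals on both are exact Poisson 95% intervals of the read number, and they do not cover the error of the IgG background. The 43 peaks had FE between 2.56 and 14.7, with a median of 4.20 and quartiles of 3.71 and 6.0, and their median read number was 16 (range 11 to 75). Over the whole list the median FE was 4.51 with quartiles of 3.73 and 5.95, and the median read number was 18. Taking all listed peaks, the median FE of the interval was thus slightly below that of the list. Among peaks that reached 5 on the −log10 q-value the order turned, with a median FE of 9.15 in the interval and 6.23 in the list. A q-value of at most 0.05 was met by 40 of 43 (93.0%), against 92.8% of the list, while 13 of 43 (30.2%, exact binomial 95% interval 17.2% to 46.1%) reached 5 or more on the −log10 q-value, against 43.1% of the list. The 3 peaks past a q-value of 0.05 were +190.8 kb in *Ahi1* and +23.3 and +9.0 kb in *Myb*.

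FE exceeded 7 in 9 of the 43 peaks (20.9%, exact binomial 95% interval 10% to 36.0%), against 14.9% of the list. This limit was set after the values were seen. Of these 9, 3 lay between *Myb* and *Hbs1l*, 1 in *Myb*, 1 between *Myb* and *Ahi1*, 3 in *Ahi1* and 1 beyond it. The sites of highest enrichment were thus spread over the interval and were not gathered at the *Myb* 5′ end.

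**Figure D3:**
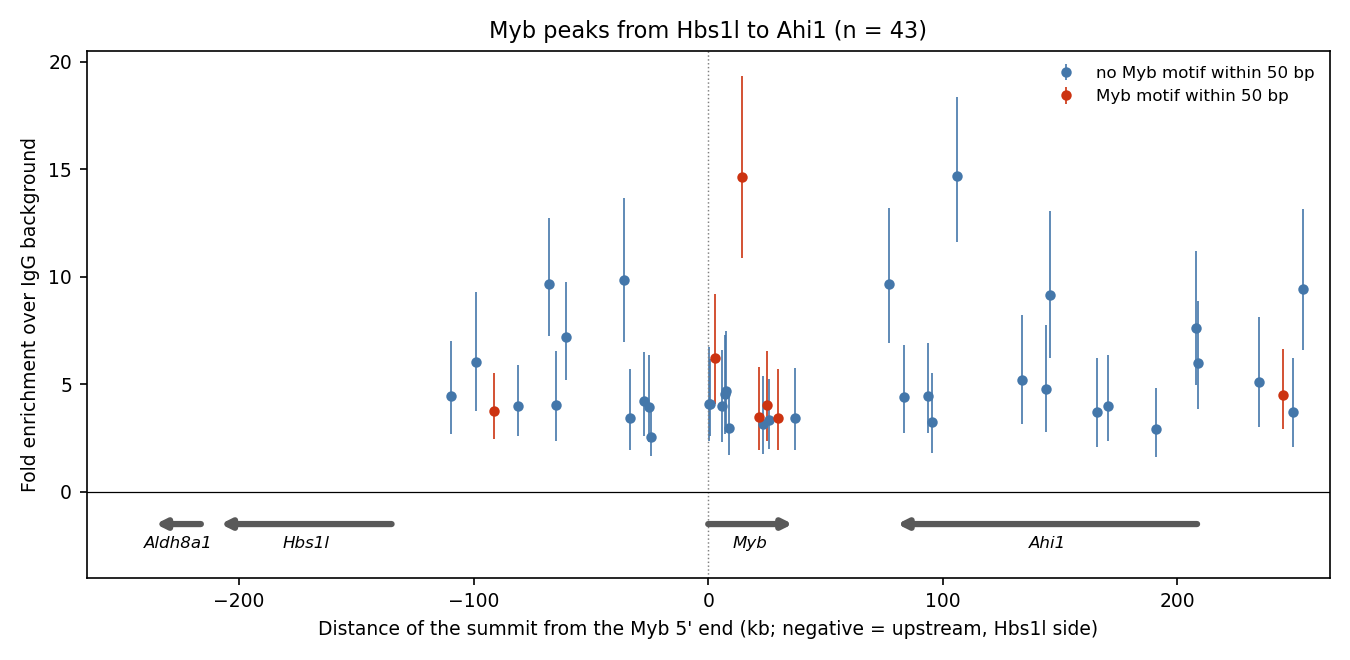
Fold enrichment over IgG background (y axis) of the 43 Myb peaks by distance of the summit from the *Myb* 5′ end (x axis, kb, negative toward *Hbs1l*). Points are single peaks of 1 library, bars are exact Poisson 95% intervals, red points hold a Myb motif within 50 bp, and arrows show protein-coding genes from 5′ to 3′. The points at +106.1 and +14.4 kb are the highest, with FE of 14.7 and 14.6, and none lies over *Hbs1l* or *Aldh8a1*.

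In the *Myb* gene (ENSMUSG00000019982.15, chr10:21124935-21160984), all 13 summits fell in introns of the principal transcript Myb-201, which has 15 exons. The strongest was at +14.4 kb in intron 8 (chr10:21145680-21147313), with FE of 14.6 (10.9 to 19.3) and 47 reads (34.5 to 62.5) over a background of 1.54. It ranked 243 of 25793 in the list. The other 12 ranged in FE from 2.94 to 6.23, and the interval of the +14.4 kb peak overlapped none of theirs, the highest of which reached 9.18. This summit also lay in the antisense gene Gm26577 (chr10:21145094-21154374) and 174 bp from the start of Myb-206, a retained-intron transcript. Its sequence, shown above, had the letters CAGTTG 1 bp from the summit, the reverse complement of CAACTG, and a GATA motif 44 bp away.

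Intron 1 held 3 summits near the *Myb* 5′ end. The peak at +2.9 kb was the widest of all 43, at 2634 bp (chr10:21156776-21159409), with FE of 6.23 (4.07 to 9.18) and 23 reads, and held CAACGG 27 bp from the summit. The peak at +0.95 kb had FE of 4.10 and 20 reads, and the peak at +0.376 kb had FE of 4.08 and 13 reads. The intervals of all 3 overlapped, and their order was not tested. These 3 summits at the start of *Myb* all lay inside the transcribed part, and the nearest summit upstream was 24.4 kb away.

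Farther into *Myb*, the peak at +5.7 kb in intron 2 had FE of 3.99 and 13 reads. In intron 3, the peaks at +7.2 and +7.6 kb had FE of 4.55 and 4.69, with 15 reads each, and both summits lay on an exon of Gm26577. In intron 5, the peak at +9.0 kb had FE of 2.94 and 14 reads over a background of 3.0. Intron 14, the longest of the gene at 13003 bp, held 5 summits. Their FE was 3.47 at +21.8 kb, 3.15 at +23.3 kb, 4.04 at +25.2 kb, 3.33 at +25.8 kb and 3.41 at +29.8 kb, with 11 to 16 reads each. These 9 peaks overlapped one another in their intervals, and none reached a −log10 q-value of 5. Of the 5 in intron 14, 3 held a Myb motif within 50 bp: TAACGG and TAACTG at +21.8 kb, and TAACTG at +25.2 and +29.8 kb. Over the list 16.7% of peaks held one, and with 5 peaks no difference from this share was read. The +21.8 kb summit lay on a repeat base.

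Compared with other genes, the number of summits in *Myb* was high for its length. Of 21938 protein-coding genes, 7773 (35.4%) held at least 1 summit in the gene body and 58 (0.264%) held 13 or more. Among 7255 genes of 0.5 to 2 times the length of *Myb*, the median was 0, and 8 genes (0.110%), *Myb* among them, held 13 or more. These counts took all listed peaks, and genes were not compared at a stricter threshold.

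On the *Hbs1l* side, 12 summits lay from −24.4 to −109.6 kb, and all 12 met a q-value of 0.05. No summit was listed in the first 24.4 kb before *Myb* or in the last 25.4 kb before *Hbs1l*. Of the 12, 3 stood above an FE of 7. The peak at −35.7 kb (chr10:21196178-21197034) had FE of 9.86 (6.94 to 13.6) and 34 reads, the peak at −67.7 kb (chr10:21228320-21228932) had FE of 9.68 (7.22 to 12.7) and 49 reads, and the peak at −60.7 kb (chr10:21221058-21223161) had FE of 7.19 (5.18 to 9.74) and 39 reads. Their intervals overlapped, and the order of these 3 was not tested.

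The other 9 upstream peaks had FE from 2.56 to 6.03. A group of 3 summits stood at −24.4, −25.4 and −27.5 kb, with FE of 2.56, 3.92 and 4.20 and with 22, 14 and 18 reads. All 3 lay over the long noncoding genes Gm33619 and Gm40608, which are transcribed from opposite strands. The −24.4 kb peak had the highest IgG background of the 43 peaks, at 6.0 against a median of 2.00, and the lowest FE. The peak at −33.5 kb had FE of 3.41 and 12 reads, and the next summit beyond −35.7 kb was 25002 bp away.

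A further 4 upstream summits, at −60.7, −64.7, −67.7 and −81.1 kb, lay in the long noncoding gene Gm33728 (chr10:21198101-21252114). The weaker 2 of these had FE of 4.04 with 14 reads at −64.7 kb and 3.98 with 22 reads at −81.1 kb. The interval at −67.7 kb, from 7.22, lay above that of both, which ended at 6.55 and 5.90. The peak at −91.3 kb, 165 bp from the Gm33728 start, had FE of 3.74 with 23 reads, and those at −98.8 and −109.6 kb had FE of 6.03 with 18 reads and 4.44 with 16 reads. Transcription of these noncoding genes was not measured here.

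**Figure D4:**
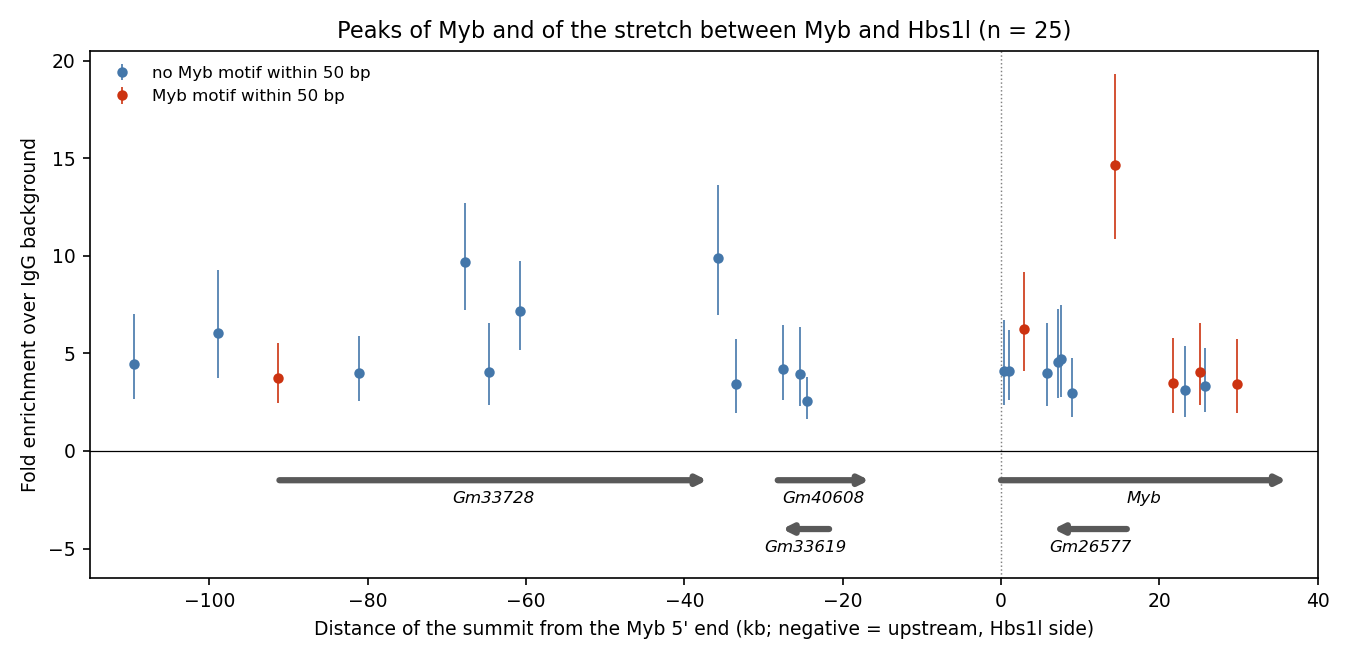
Fold enrichment over IgG background (y axis) of the 13 peaks in *Myb* and the 12 between *Myb* and *Hbs1l* by distance of the summit from the *Myb* 5′ end (x axis, kb). Points are single peaks, bars exact Poisson 95% intervals, red points hold a Myb motif within 50 bp, and arrows show *Myb* and noncoding genes from 5′ to 3′. The +14.4 kb peak stands above the rest of the gene, the peaks at −35.7, −60.7 and −67.7 kb are the highest upstream, and no point lies between −24.4 kb and the *Myb* 5′ end.

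The upstream stretch and the *Myb* gene had medians of FE of 4.12 and 4.04, and median read numbers of 20 and 14. Median FE was thus close in both, and read numbers were higher upstream. The IgG background ran from 1.46, the lowest value of the list, to 6.0 across all 43 peaks, and its part in these levels was not tested.

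*Ahi1* (ENSMUSG00000019986.17, chr10:20952547-21080429) held 11 summits, and 93 of the 21938 protein-coding genes (0.424%) held 11 or more. Among 3263 genes of 0.5 to 2 times its length, 62 (1.90%) held as many. The strongest peak of the whole interval lay here, at +106.1 kb in intron 19 (chr10:21054285-21055658), with FE of 14.7 (11.6 to 18.3) and 75 reads (59.0 to 94.0) over a background of 3.0. It ranked 239 in the list, with 0.934% of all peaks at or above it. Its FE interval overlapped that of the +14.4 kb peak in *Myb*, and so did the read intervals. Overlap of intervals does not settle the order of the 2 peaks, which was not tested. The nearest annotated start was that of the antisense gene Gm20149, 5990 bp away.

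The next strongest in *Ahi1* were at +145.6 kb in intron 17, with FE of 9.15 and 28 reads, and at +207.8 kb in intron 1, with FE of 7.59 and 23 reads. The other 8 had FE from 2.89 to 5.20. At the *Ahi1* 5′ end, the summit at +208.7 kb lay 256 bp before the start, with FE of 5.98 (3.87 to 8.88) and 22 reads. The summit at +207.8 kb was 543 bp from the start of another *Ahi1* transcript. Of the 5 summits before *Ahi1*, the strongest was at +253.7 kb, with FE of 9.43 and 32 reads, and the peak at +245.2 kb (FE 4.48, 22 reads) held TAACTG 12 bp from its summit. Between *Myb* and *Ahi1* the peak at +77.1 kb had FE of 9.67 (6.91 to 13.2) and 37 reads, and the peak at +37.2 kb, just past the *Myb* 3′ end, had FE of 3.42 and 12 reads.

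*Hbs1l* (ENSMUSG00000019977.16, chr10:21295979-21368898) had no listed summit, unlike *Myb* and *Ahi1*, and neither had *Aldh8a1* on its other side. The nearest was the −109.6 kb peak, 25442 bp before its 5′ end. From that peak the next summit in the list came after 419.216 kb, across all of *Hbs1l*, and 1083 of 25395 gaps between neighboring autosomal summits (4.26%) were as long or longer. A gene without a summit was common: among 5040 genes of 0.5 to 2 times the length of *Hbs1l*, 2380 (47.2%) held 0. A list holds only sites that passed the caller's threshold, so weaker binding in *Hbs1l* cannot be judged from it.

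The promoters of the 3 genes were all rich in CpG. From 250 bases before to 50 after the start, RefSeq sequence (GRCm38.p6) held 40 CpG in *Myb*, 29 in *Hbs1l* and 31 in *Ahi1*, with GC contents of 75%, 61% and 65%, and all 3 met the rule used here for a CpG-rich promoter. Of 9058 protein-coding genes with such a promoter, 63.7% had a summit within 3 kb of a start site, against 39.9% of all protein-coding genes. *Myb* and *Ahi1* had one and *Hbs1l* did not. No Myb motif was found in any of the 3, whereas 28.3% of 32851 RefSeq promoters held it, and a missing match says only that these letters are not in the window. The promoters of *Myb* and *Hbs1l*, which face each other, were picked for display after the values were seen and are shown on their own strands with each CpG in capitals.
*Myb* promoter, minus strand, chr10:21160935-21161234: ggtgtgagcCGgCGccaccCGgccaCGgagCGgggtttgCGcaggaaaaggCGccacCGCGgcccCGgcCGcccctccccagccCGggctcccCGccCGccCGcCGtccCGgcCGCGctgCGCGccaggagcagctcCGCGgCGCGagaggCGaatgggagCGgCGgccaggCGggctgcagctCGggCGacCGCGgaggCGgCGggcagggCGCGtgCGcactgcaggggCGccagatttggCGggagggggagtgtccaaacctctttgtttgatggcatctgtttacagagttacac
*Hbs1l* promoter, plus strand, chr10:21295729-21296028: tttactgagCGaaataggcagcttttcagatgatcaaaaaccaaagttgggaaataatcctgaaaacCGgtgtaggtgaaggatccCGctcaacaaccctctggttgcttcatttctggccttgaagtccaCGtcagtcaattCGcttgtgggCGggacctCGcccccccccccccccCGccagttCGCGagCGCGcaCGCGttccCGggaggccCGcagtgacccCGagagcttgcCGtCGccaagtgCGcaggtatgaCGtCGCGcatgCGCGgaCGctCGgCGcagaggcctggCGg

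The interval was poorer in start-site peaks than the list. A summit lay within 3 kb of an annotated start in 14 of 43 peaks (32.6%, exact binomial 95% interval 19.1% to 48.5%), against 57.6% of the list. Of these 14, 7 lay in *Myb*, 4 in the upstream stretch beside the noncoding genes, 2 in *Ahi1* and 1 before it. Of the 14, 5 were near the start of a protein-coding transcript, at *Myb* and *Ahi1*, and the list's share by that rule was not computed. The summit base was in a soft-masked repeat in 5 of 43 (11.6%), against 11.1% of the list. Median GC content within 50 bp of the summit was 44.6%, against 48.5%, and median peak width was 601 bp, against 577 bp.

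How frequent the Myb motif was relative to the list depended on the window. It lay within 50 bp of the summit in 7 of 43 peaks (16.3%, exact binomial 95% interval 6.81% to 30.7%), against 16.7% of the list. Within 100 bp it was held by 19 of 43 (44.2%, 29.1% to 60.1%), against 30% of the list, and anywhere in the peak by 32 of 43 (74.4%, 58.8% to 86.5%), against 58.6%. The list's share lay inside the interval for the 50 and 100 bp windows and just below it for whole peaks. The intervals treat the 43 peaks as independent, which neighboring peaks are not, so the position of the list's share is given as a description. By location, the motif within 50 bp was held by 5 of 13 in *Myb* (38.5%, 13.9% to 68.4%), 1 of 12 in the upstream stretch (8.33%, 0.211% to 38.5%), 0 of 11 in *Ahi1* (up to 28.5%) and 1 of 5 before *Ahi1*. The intervals of these locations overlapped. The motif-bearing peaks included the +14.4 kb peak but not the +106.1 kb peak, whose nearest Myb motif, CAACTG, lay 52 bp from the summit, just past the limit.

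Among the 6 other families, the counts within 50 bp lay near those of the list for most. GATA matched in 8 of 43 peaks (18.6%, against 13.8% of the list), ETS in 7 (16.3%, against 20.4%), RUNX in 3 (6.98%, against 12.2%) and the E-box in 9 (20.9%, against 25.9%). KLF matched in 1 (2.33%, against 11.2%). CEBP matched in 7 (16.3%, 6.81% to 30.7%), against 6.16% of the list, a share just below that interval, and with 7 families counted and no replicate it is given as a description.

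In the 12 peaks of the upstream stretch, the E-box was held by 4 within 50 bp, GATA and ETS by 3 each, CEBP by 2, RUNX and Myb by 1 each and KLF by 0. Over the list the shares were 25.9% for the E-box, 13.8% for GATA and 20.4% for ETS. With 12 peaks, no difference from these shares was read. The −35.7 kb peak held all 3 of these motifs: overlapping ETS matches 3 and 7 bp from the summit, a GATA match at 37 bp and an E-box at 36 bp, as its sequence shows. The −67.7 kb peak held the E-box CAGATG 5 bp from its summit. The −60.7 kb peak held none of the 7 motifs wholly within 50 bp. There an E-box, CAGGTG, began 49 bp from the summit and ran past the limit, and a GATA match stood at 53 bp. The nearest Myb motif of that peak, CAACTG, was 58 bp away. At −98.8 kb a GATA and a RUNX match stood 29 and 17 bp from the summit, and at −109.6 kb a GATA match stood at 15 bp. At −91.3 kb the Myb motif was 33 bp and an E-box 26 bp from the summit. The +106.1 kb peak in *Ahi1* held an E-box at 2 bp, CEBP matches at 11 and 14 bp and an ETS match at 20 bp. A match is a string of letters in the reference genome, and binding of these other factors was not measured.

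At the edges of the interval, the last peak inside on the *Ahi1* side was +253.7 kb (FE 9.43), and the first outside was at +278.2 kb (FE 7.29). On the *Hbs1l* side the last inside was −109.6 kb (FE 4.44), and the first outside was at −528.8 kb (FE 4.47).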

How the data were processed

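There were 2 samples, an anti-Myb and an IgG precipitate of WT Lin- bone marrow chromatin, with 1 library each, grouped by title. The file used was the peak list of the Myb library. Per the study's methods and the processing notes, the authors used Cutadapt 1.15 for trimming, BWA 0.7.13 for alignment to mm10 and Picard for removal of duplicates. They called narrow peaks with MACS2 2.1.1.20160309 against IgG and kept calls shared by pseudo-replicates, which are subsets of the reads of 1 library. The methods state a q-value below 0.05 for these calls. In the list used, 92.8% of peaks had a q-value of at most 0.05, and 3 of the 43 in the interval did not. Fold enrichment was deposited as a ratio, and p-values and q-values were deposited as −log10 values by the authors. The deposited score was not used.

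Summits were placed by GENCODE vM21 in 1-based mm10 coordinates. Total read depth is not given in the list. Myb reads per summit were recovered from fold enrichment and p-value, with 1 pileup scale of 0.769 that gave whole reads in 100% of rows (tolerance 0.002 in −log10 p). Whole fractions of the true scale can fit as well, so the largest scale with a near-best fit was taken. The fit alone does not settle this choice, and a smaller scale would give more reads and narrower intervals. The recovery was tested on simulated data with known read numbers, which it returned. Those data were drawn by the same formula, so this checks the recovery step and not the formula or the scale of this list. Read numbers ran from 7 to 130 over the list, which limits precision. Duplicates were removed by position without molecular identifiers, so intervals cover counting error only. A CpG-rich promoter had an observed-to-expected CpG ratio of at least 0.6 and GC of at least 50%. The autosomal windows were tiled, with at most 10% unsequenced bases.

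Every peak of *Myb* and of the stretch toward *Hbs1l* was named, as were the strongest peak of each of the 5 stretches that held any, every peak with a Myb motif, and genes in the interval. Other peaks named were chosen after their values were seen. The interval, members and lists were chosen with earlier results of these data known. With 1 library per group no test was made. Alternatives changed the peak threshold, placement, margin, motif form and window, start-site window and density reference. Analyses used Python 3.11.15, numpy 2.4.6, pandas 2.3.3, scipy 1.17.1 and pysam 0.24.0.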

Additional observations from a re-analysis of the deposited data

How the results depend on the processing

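Of 36 alternative values for 10 results, 21 stayed within the spread set for them or within 1.5 times the count, and 15 moved. When the −log10 q-value had to reach 5, the interval held 13 peaks, the upstream stretch 4, *Myb* 2 and *Ahi1* 4. The density was then 5.49 times the autosomal mean, and the median fold enrichment was 9.15 (6.23 over the list). Of the 13 peaks, 2 held a Myb motif within 50 bp, and the list's share at that q-value was not computed. Against the median window in place of the mean, the density ratio was 21.5. At that q-value, 116 of 4600 windows (2.52%) held 13 or more. The motif was held by 4 peaks within 25 bp (9.30%, against 8.68% of the list), 19 within 100 bp (44.2%, against 30%), 26 as AACNG within 50 bp (60.5%, against 54.3%) and 32 anywhere in the peak (74.4%, against 58.6%). Start-site peaks numbered 8 within 1 kb, 4 within 500 bp and 5 with protein-coding starts alone. Shares of the list were not computed at these settings, so these counts cannot be set against it. *Hbs1l* held 0 peaks also when any base of a peak was counted. Stricter thresholds only remove peaks, so they could not change this 0, though they are among the 21 that stayed. The other protein-coding start of *Myb*, which only shifts the distances, is also among them. The strongest peak was at +106.1 kb by fold enrichment, q-value and reads.

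No paired analysis was possible because there was 1 library per group, and no replicate was left out for the same reason. Variation between mice or cultures was not measured. Total depth is unknown, and most peaks of the interval rest on few reads (median 16). Sites below the caller's threshold are not listed. IgG background was available only as the value at each summit.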
